A study of Mus musculus with 15 samples.

Results

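The cortex of exercised SAMP8 mice was set against that of sedentary SAMR1 mice, using 10 of the 15 arrays of the study: 5 arrays titled as exercised SAMP8 (replicates 11 to 15) and 5 titled as sedentary SAMR1 (replicates 1 to 5). Arrays were assigned to these groups by title alone and not by any measured value. A further 5 arrays from sedentary SAMP8 mice (replicates 6 to 10) gave the values set beside them. All animals were adult females, the tissue was whole cortex, and total RNA was labelled with Cy3 and hybridised to 1-colour Agilent arrays. The sources used here do not give the kind and length of the exercise, an age beyond "adult", or how many animals stand behind each array. No exercised SAMR1 array was analysed here, so strain and exercise cannot be told apart within this contrast alone. Where arrays do not stand for separate animals, the p-values measure only the spread between these samples.

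SAMP8 is a senescence-prone inbred mouse strain that loses learning and memory early in life. SAMR1 is a senescence-resistant strain of the same breeding programme and serves as its usual control. The strains differ in inherited sequence across the genome as well as in how they age, and voluntary or forced running is used in such mice to ask which features of the aged brain respond to activity.

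Markers of the labelled tissue and of its neighbours were read on the 10 arrays. All 20 measured markers of excitatory and layer neurons, all 16 of astrocytes and all 19 of microglia lay above the lower quartile of intensity (72.1) on every array. So did all 18 markers of striatal neurons, all 20 of meninges and fibroblasts, 14 of 17 of hippocampus and 11 of 19 of thalamus and hypothalamus, so these markers do not tell cortex from the neighbouring regions. Of choroid plexus markers 2 of 14 did so, and Slc4a5 and Tmem72 of that list were below it on all 10 arrays. Intensity below this quartile is called dim below, since no detection calls were used. The number of arrays limits the precision.

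The 10 arrays separated by group on the first principal component, which held 24.3% of the variance. The exercised SAMP8 arrays had scores of -29.4 to -5.56 and the SAMR1 arrays 2.53 to 24.3. SAMR1 replicate 2 lay nearest to the SAMP8 side. The lowest weights when limma weighted the arrays by quality were those of exercised SAMP8 replicate 15 (0.698) and SAMR1 replicate 2 (0.668). Over 16401 genes, Pearson correlations between exercised SAMP8 and SAMR1 arrays ran from 0.976 to 0.988.

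Between exercised SAMP8 and SAMR1 cortex, 698 of the 16401 genes measured differed (4.26%, limma adjusted p under 0.05). Of these, 460 rose in exercised SAMP8 (2.8% of all genes) and 238 fell (1.45%). With quantile normalization the split was 341 higher and 269 lower, so the share of rises was 55.9% in place of 65.9%. Over all 16401 genes, passed or not, 9612 differences were above 0, with a median of 0.038, or 0.004 with quantile normalization. Counts of differences above 0 in the gene lists below are to be read against this. The median absolute log2 difference of the genes that passed was 0.58, and 99 were past 2-fold, 53 up and 46 down. The values of both groups did not overlap in 576 of the 698 genes and in 952 of all genes (5.8%). The 698 were called on these same arrays, so the first of these counts is a description. Leaving out 1 array at a time gave 483 to 848 genes. The lowest count, with 306 rises, came without SAMR1 replicate 5, and the highest without SAMR1 replicate 2. Without both arrays of lowest weight, chosen after seeing the data, 611 genes passed, 384 up and 227 down.

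In the same fit, sedentary SAMP8 minus SAMR1 gave 497 genes, 303 higher and 194 lower in SAMP8. Both contrasts use the SAMR1 arrays, so their values are set side by side below and no overlap is drawn from them. Between exercised and sedentary SAMP8, 0 genes passed in limma, the smallest adjusted p was 0.521, and 1162 genes had an unadjusted p under 0.05. Without exercised SAMP8 replicate 12, 3 genes passed there, all lower in exercised than in sedentary SAMP8: Klf2 (log2 difference -0.78, with most sedentary values at the top of the intensity scale), Lsm14b (-0.75) and the splicing factor Prpf19 (-1.11), each at a limma adjusted p of 0.0228. Lsm14b and Prpf19 are named because they passed without that array. Every other alternative that kept the sedentary SAMP8 arrays gave 0 genes in that contrast. The smallest limma adjusted p there ran from 0.345 to 0.969. The median standard error of a log2 difference was 0.121 between exercised SAMP8 and SAMR1, and smaller differences than the errors allow may be present in either comparison.

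**Figure D1:**
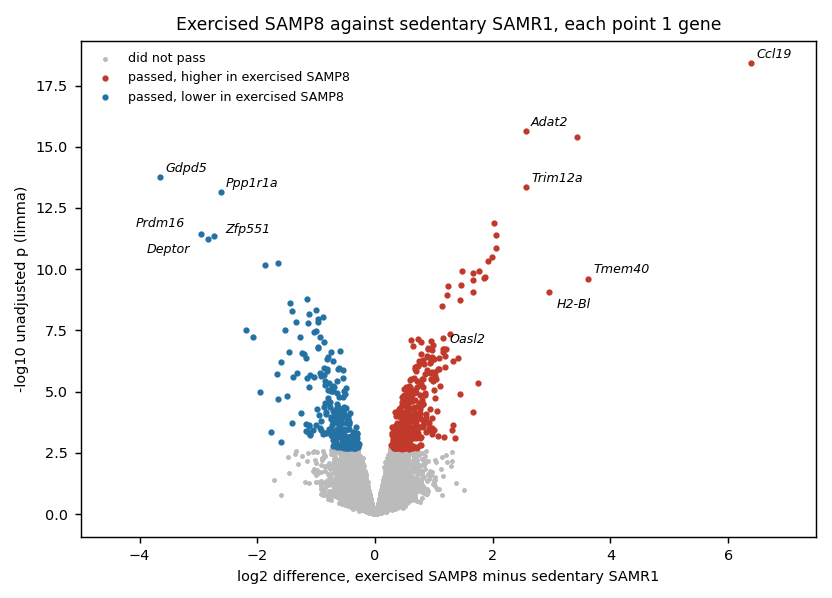
Each point is 1 of 16401 genes, with the log2 difference (exercised SAMP8 minus sedentary SAMR1) on the horizontal axis and -log10 of limma's unadjusted p on the vertical axis. The 460 genes that passed and were higher in exercised SAMP8 are red, the 238 that passed and were lower are blue, and Ccl19 stands farthest out at a log2 difference of 6.38.

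The highest positive difference was that of Ccl19, a ligand of the receptor Ccr7 that draws immune cells into lymphoid tissue. Log2 intensity of Ccl19 was 15.41, 14.96, 14.99, 15.12 and 15.26 on the exercised SAMP8 arrays, against 8.70, 8.95, 8.94, 8.46 and 8.78 on the SAMR1 arrays. The groups were far apart, with little spread in either. The difference was 6.38 ± 0.11 on the log2 scale (SE), or 83.4-fold (limma adjusted p = 6.36e-15), and a second feature of the gene gave 5.69. In sedentary SAMP8 the log2 difference from SAMR1 was 6.22. Ccl19 belongs to a region of near-identical gene copies in the mouse, and its features may read more than 1 of them.

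Several of the other large rises were in genes that act on RNA. Adat2, the catalytic subunit of the enzyme that converts adenosine to inosine at the wobble base of tRNA, had log2 intensities of 10.10, 10.03, 9.99, 10.08 and 10.15 in exercised SAMP8, against 7.54, 7.40, 7.51, 7.55 and 7.56 in SAMR1. No exercised SAMP8 array came near the SAMR1 range (difference 2.56 ± 0.07, limma adjusted p = 1.87e-12). Fbll1, a fibrillarin-like protein, rose by 2.03 ± 0.09 and Rpusd4, a mitochondrial pseudouridine synthase, by 1.98 ± 0.12. The differences of sedentary SAMP8 from SAMR1 were 2.45 for Adat2, 1.93 for Fbll1 and 2.04 for Rpusd4. The gene lists here and below were drawn up with earlier results of these data known, so their counts are descriptions, to be read against the 4.26% of all genes that passed. Of 22 measured deaminases, pseudouridine synthases and related enzymes, 5 rose, 1 fell and 16 did not pass, and the median of the list was 0.11, against 0.04 over all genes. The other rises were smaller, in Pus3, a tRNA pseudouridine synthase (0.44 ± 0.10, chosen after its values were seen), and Adarb2, an RNA-binding relative of the RNA-editing deaminases (0.54 ± 0.13). The fall was that of Trub1, which makes pseudouridine in the T arm of tRNA: -1.87 ± 0.11 by its brightest feature, -0.51 by the median of its other features, and -0.96 with the mean of all. Sedentary SAMP8 differed from SAMR1 by -1.76 at the brightest feature of Trub1. A call was lost for Pus3 without exercised SAMP8 replicate 11 or 14 or SAMR1 replicate 3, over the 10 arrays alone or with the mean of its features (adjusted p 0.0506 to 0.21) and Adarb2 on leaving out any 1 of 7 arrays or with the mean of its features (adjusted p 0.0511 to 0.213).

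Slc2a5, a fructose transporter that in brain is found mainly in microglia, had log2 intensities of 10.17, 10.09, 10.28, 9.99 and 10.11 in exercised SAMP8, against 8.20, 8.31, 8.16, 7.83 and 7.88 in SAMR1. All 5 exercised SAMP8 arrays were above all 5 SAMR1 arrays. It rose by 2.05 ± 0.10 (limma adjusted p = 7.4e-09), while the other 10 measured sugar transporters did not pass. Mal2, a membrane protein of vesicle traffic, rose by 1.91 ± 0.11, and Dct, the melanin enzyme dopachrome tautomerase, by 1.85 ± 0.12, with 0.73 at a second feature. Zinc finger genes stood at both ends of the range. Zfp606 rose by 2.06 ± 0.11 at its brightest feature, yet its other feature gave -0.11 and the mean of both 0.97. Zfp429 rose by 1.87 ± 0.12 and was dim on 4 SAMR1 arrays. Sedentary SAMP8 differed from SAMR1 by 1.97 for Slc2a5, 1.72 for Mal2, 1.92 for Dct, 1.98 for Zfp606 and 1.94 for Zfp429.

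For 4 of the 12 largest rises, SAMR1 intensities were mostly dim, Zfp429 among them. Tmem40, a transmembrane protein, had log2 intensities of 8.62, 9.53, 10.07, 9.55 and 9.74 in exercised SAMP8, against 5.25, 6.25, 6.01, 6.06 and 5.87 in SAMR1, where 4 of 5 arrays were dim. The difference was 3.61 ± 0.24 (limma adjusted p = 1.81e-07), with 1.94 at its other feature. H2-Bl, an MHC class I gene, differed by 2.96 ± 0.22 and Trim12a, a TRIM family ubiquitin ligase, by 2.57 ± 0.09, and both were dim on all 5 SAMR1 arrays. Adding 50 to every intensity before the log brought these to 1.91 and 1.71, and averaging its features gave H2-Bl a difference of 1.77. The sizes for these genes therefore rest on values near an unknown floor, while their direction did not turn under any alternative run. Sedentary SAMP8 differed from SAMR1 by 3.56 for Tmem40, 3.05 for H2-Bl and 2.66 for Trim12a.

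The largest fall was that of Gdpd5, a membrane glycerophosphodiester phosphodiesterase that releases proteins from their lipid anchors. Its log2 intensity was 6.66, 7.00, 7.01, 7.08 and 7.40 in exercised SAMP8, against 10.76, 10.68, 10.82, 10.56 and 10.62 in SAMR1. The groups were separated by more than their full spread, at -3.66 ± 0.13 or 12.6-fold lower in exercised SAMP8 (limma adjusted p = 7.29e-11). Enpp5, of the nucleotide pyrophosphatase family, fell as well (-1.66 ± 0.10). These were 2 of 10 measured members of both phosphodiesterase families, and the other 8 did not pass. In sedentary SAMP8 the difference from SAMR1 was -3.71 for Gdpd5 and -1.53 for Enpp5.

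Ppp1r1a, an inhibitor of protein phosphatase 1 that acts once phosphorylated by protein kinase A, had log2 intensities of 11.42, 11.66, 11.63, 11.39 and 11.43 in exercised SAMP8, against 14.21, 14.18, 14.26, 14.08 and 13.93 in SAMR1. Both of its features showed the gap (-2.62 ± 0.10 and -2.39, limma adjusted p = 1.94e-10). Sedentary SAMP8 differed from SAMR1 by -2.61 at its brightest feature. Among 24 measured genes of the phosphatase, its regulators and inhibitors, the only other gene that passed was Ppp1r3d, a glycogen-targeting subunit, which rose by 0.95 ± 0.11.

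Deptor, an inhibitor of the growth kinase mTOR, had log2 intensities of 8.43, 7.85, 7.90, 7.96 and 7.95 in exercised SAMP8, against 10.78, 10.88, 11.01, 10.90 and 10.69 in SAMR1. Exercised SAMP8 replicate 11 was the highest of its group and still far below SAMR1. Its brightest feature gave -2.83 ± 0.15 (limma adjusted p = 8.73e-09), the other feature -0.49 and their mean -1.66. At that brightest feature sedentary SAMP8 differed from SAMR1 by -2.76. In the insulin, mTOR and translation list, 0 of 34 measured genes rose and 3 fell, with a list median of -0.07. The other falls were in Pdpk1, the kinase that activates Akt (-0.96 ± 0.18, and -0.50 with the mean of its features), and Eif4ebp1, the translation repressor that mTOR phosphorylates (-0.63 ± 0.11). Pdpk1 differed by -0.56 in sedentary SAMP8 and did not pass there, and its exercised minus sedentary SAMP8 difference did not pass either. The threshold was missed by Eif4ebp1 with the mean of its features (adjusted p 0.0577). Without SAMR1 replicate 2 the list had 6 genes that passed.

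Prdm16, a transcriptional regulator of neural stem cells and brown fat, had log2 intensities of 6.07, 6.56, 6.05, 6.16 and 5.84 in exercised SAMP8, against 9.00, 9.18, 9.28, 8.96 and 9.06 in SAMR1. It was dim on 4 of the 5 exercised SAMP8 arrays and on no SAMR1 array (-2.96 ± 0.15, limma adjusted p = 7.4e-09). The other 8 measured PRDM genes did not pass. Usf1, a helix-loop-helix transcription factor, fell (-1.53 ± 0.15). Erdr1, a gene of the pseudoautosomal region with many copies, differed by -1.67 ± 0.22 and was within 1% of the highest intensity of the table on 2 SAMR1 arrays. Pramel39, of a germline gene family with many near-identical members, differed by -1.96 ± 0.30.

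Of the 12 largest falls, Peg3, Zfp551 and Gzmf had the widest gaps between exercised and sedentary SAMP8. Peg3, an imprinted zinc finger gene read from the paternal copy, had log2 intensities of 8.86, 9.18, 8.94, 8.92 and 7.82 in exercised SAMP8, against 10.24, 10.16, 10.31, 10.48 and 10.55 in SAMR1. Exercised SAMP8 replicate 15 was the lowest array. The difference was -1.61 ± 0.19, and it was -0.94 in sedentary SAMP8. Its other feature gave -0.26 and the mean of both -0.94. Zfp551, a zinc finger gene, differed by -2.73 ± 0.14 in exercised and by -2.23 in sedentary SAMP8. Gzmf, a granzyme of killer lymphocytes, was dim on all 5 exercised SAMP8 and 4 SAMR1 arrays. Its values overlapped between the groups (-1.61 ± 0.40), and sedentary SAMP8 differed from SAMR1 by -0.16. The call did not hold for Gzmf on leaving out any 1 of 7 arrays, over the 10 arrays alone or without the 2 arrays of lowest weight (adjusted p 0.0556 to 0.0884). The exercised minus sedentary SAMP8 differences, -0.66 for Peg3, -0.51 for Zfp551 and -1.44 for Gzmf, did not pass.

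**Figure D2:**
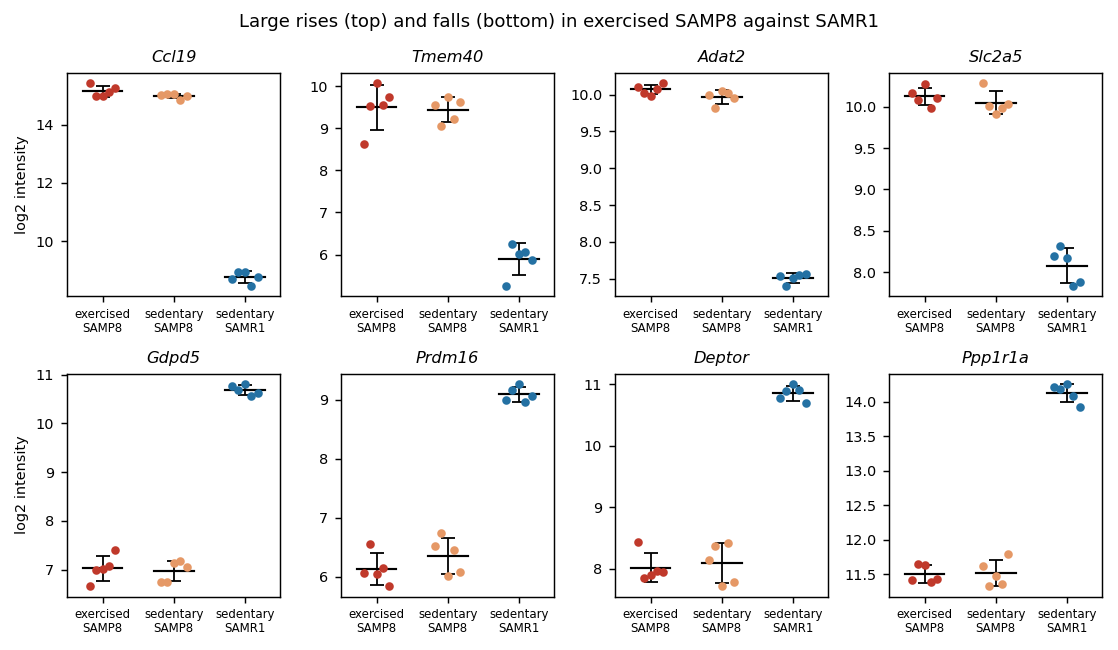
Log2 intensity of 8 of the genes with the largest differences on each array, in exercised SAMP8, sedentary SAMP8 and sedentary SAMR1 (5 arrays each; line and bar show mean ± SD). In each panel no exercised SAMP8 array reaches the range of SAMR1.

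Interferons switch on a broad set of antiviral genes through a short promoter element, the interferon-stimulated response element. Of 37 measured interferon-induced genes, 10 rose in exercised SAMP8, 0 fell and 27 did not pass. The median log2 difference of the list was 0.44, against 0.04 over all genes. Differences above 0 were seen in 31 of the 37, and in 9612 of all 16401 genes. Oasl2, of the oligoadenylate synthetase family that senses viral RNA, had log2 intensities of 7.72, 8.19, 7.72, 7.44 and 7.74 in exercised SAMP8, against 6.58, 6.75, 6.60, 6.53 and 6.44 in SAMR1. Its groups did not overlap (1.18 ± 0.13, limma adjusted p = 4.78e-05). Eif2ak2, the RNA-activated kinase PKR that stops translation, had log2 intensities of 7.55, 7.69, 7.37, 7.32 and 7.33 in exercised SAMP8, against 6.78, 6.22, 6.71, 6.16 and 6.26 in SAMR1. Its groups were also apart (1.02 ± 0.14, limma adjusted p = 0.00031). Oas1a, a sensor that activates RNase L, had log2 intensities of 6.75, 7.05, 6.88, 6.74 and 6.70 in exercised SAMP8, against 5.84, 6.22, 6.17, 6.00 and 5.80 in SAMR1. It was dim on 3 SAMR1 arrays, and the difference was 0.82 ± 0.11 (limma adjusted p = 0.000387).

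The reference promoters of these 3 genes are shown because the genes share interferon control in the textbook account and moved in the same direction here. The sequences are RefSeq's for build GRCm38.p6, which is not the genome of either SAM strain. Each runs from 250 bases before to 50 bases after the annotated gene start. Capitals mark GAAANNGAAA, the core of that element, searched on both strands with overlapping matches allowed. Oasl2 lies at chr5:114896684-114896983 on the plus strand and held no match. Eif2ak2 lies at chr17:78882523-78882822 on the minus strand and held 1 match, 18 bases after the start. Oas1a lies at chr5:120907476-120907775 on the minus strand and held 2 overlapping matches.
Oasl2: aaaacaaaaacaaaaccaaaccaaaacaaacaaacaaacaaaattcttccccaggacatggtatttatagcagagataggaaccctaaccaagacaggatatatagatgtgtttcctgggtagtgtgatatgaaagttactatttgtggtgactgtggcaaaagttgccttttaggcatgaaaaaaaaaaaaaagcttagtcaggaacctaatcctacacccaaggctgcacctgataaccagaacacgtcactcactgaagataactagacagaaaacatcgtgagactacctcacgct
Eif2ak2: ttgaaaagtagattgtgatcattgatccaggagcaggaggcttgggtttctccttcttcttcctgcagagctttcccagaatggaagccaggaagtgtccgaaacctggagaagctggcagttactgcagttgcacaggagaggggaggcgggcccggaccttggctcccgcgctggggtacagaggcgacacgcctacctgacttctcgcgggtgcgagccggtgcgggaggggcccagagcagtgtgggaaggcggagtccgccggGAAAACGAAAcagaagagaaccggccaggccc
Oas1a: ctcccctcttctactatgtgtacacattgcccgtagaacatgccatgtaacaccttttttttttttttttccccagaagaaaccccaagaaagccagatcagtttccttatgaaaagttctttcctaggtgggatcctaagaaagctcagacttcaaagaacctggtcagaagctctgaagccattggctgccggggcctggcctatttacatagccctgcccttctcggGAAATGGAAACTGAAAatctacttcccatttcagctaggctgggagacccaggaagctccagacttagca
The motif was present in 1131 of 32851 reference promoters (3.44%). The list was counted by gene and not by promoter, a gene holding the motif if any of its promoters did. Of the 37 list genes, 26 had a promoter in the table and 16 of those held it. Of the 10 genes that rose, 5 had a promoter and 3 of those held it. A match describes letters in this window and shows no binding.

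The other interferon-induced rises, all chosen after their values were seen, included Ifi27l2a (1.66 ± 0.30, and 1.31 at its other feature), Lgals3bp (0.81 ± 0.17), Ifi204, a DNA sensor (0.77 ± 0.11), Parp14 (0.68 ± 0.11), Dhx58, an RNA sensor (0.43 ± 0.09), Usp18, which removes the modifier ISG15 (0.63 ± 0.15), and Ifit1 (0.64 ± 0.17). In sedentary SAMP8 the list had 12 rises and 0 falls with a median of 0.42. On the exercised SAMP8 arrays the mean deviation of the list from its average over all 15 arrays (its score) was -0.08 to 0.48, on the sedentary SAMP8 arrays 0.01 to 0.30 and on the SAMR1 arrays -0.43 to -0.19. Adjusted p was no longer under 0.05 for Ifi204 with the mean of its features (adjusted p 0.144), Parp14 with the mean of its features (adjusted p 0.748), Usp18 without exercised SAMP8 replicate 13 or 15 or SAMR1 replicate 1 or 4, over the 10 arrays alone or without the 2 arrays of lowest weight (adjusted p 0.0511 to 0.0691) and Ifit1 on leaving out any 1 of 10 arrays, with quantile normalization, over the 10 arrays alone or without the 2 arrays of lowest weight (adjusted p 0.0508 to 0.112). Without exercised SAMP8 replicate 14, 16 genes of the list passed, and without the 2 arrays of lowest weight 9. In bulk tissue, a change in the number of cells of a type and a change in RNA per cell cannot be told apart.

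Antigen presentation genes did not move one way. MHC class I molecules show peptides to T cells, and class II molecules do so on professional antigen-presenting cells. Of 38 measured genes, 3 rose, 4 fell and 31 did not pass, with a median of -0.04. Beside H2-Bl, the rises were in Tap2, a peptide transporter (0.30 ± 0.06), and H2-M3, which shows bacterial peptides (0.40 ± 0.10). H2-Q4 fell (-0.77 ± 0.13, limma adjusted p = 0.00228), and so did H2-D1, a classical class I gene (-0.61 ± 0.12). The class II peptide loaders H2-DMb1 (-0.58 ± 0.12) and H2-DMb2 (-0.63 ± 0.08) fell as well, H2-DMb2 to dim values on all 5 exercised SAMP8 arrays. These genes lie in families of similar and strain-variable copies, and a feature may read more than 1 of them. Tap2, H2-M3 and H2-DMb1 were chosen after their values were seen, and a call was lost for H2-M3 on leaving out any 1 of 8 arrays, with quantile normalization, with median centring, over the 10 arrays alone, with array weights or without the 2 arrays of lowest weight (adjusted p 0.0501 to 0.133).

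Of 45 measured chemokines and receptors, 3 rose and 1 fell. Ccl21c, another ligand of Ccr7, had log2 intensities of 8.48, 8.60, 8.39, 8.66 and 8.88 in exercised SAMP8, against 6.97, 7.11, 7.17, 6.65 and 6.84 in SAMR1. Every exercised SAMP8 array was above every SAMR1 array (1.66 ± 0.11, limma adjusted p = 2.06e-07). Ccl27a, a skin chemokine, rose by 0.99 ± 0.14. Like Ccl19, both belong to the multicopy chemokine region. Ccl17, a ligand of Ccr4, fell by 0.74 on the log2 scale (SE 0.16, chosen after its values were seen). On 15 of the 45 genes all 10 arrays were dim.

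Complement, a cascade of blood and glial proteins that tags targets for removal, gave 0 rises and 2 falls among 23 measured genes. C4b, the central component of the classical pathway, had log2 intensities of 9.56, 9.64, 9.52, 9.50 and 9.62 in exercised SAMP8, against 10.81, 10.45, 11.07, 10.37 and 10.67 in SAMR1. The groups did not overlap (-1.11 ± 0.15, limma adjusted p = 0.000292). C2, which joins it in the same convertase, fell as well (-0.62 ± 0.11), with -0.82 at its other feature. C4b has a near-identical copy in the mouse. In sedentary SAMP8 the complement list had 0 rises and 2 falls against SAMR1. Of 41 measured TRIM ubiquitin ligases, 4 rose and 0 fell. Beside Trim12a these were Trim67 (0.59 ± 0.11), Trim36 (0.47 ± 0.09) and Trim34a (0.81 ± 0.17, chosen after its values were seen). In the cytokine list 2 of 32 genes rose, Tlr4, the endotoxin receptor (0.59 ± 0.13), and Il1r1, the interleukin 1 receptor (0.39 ± 0.10). A call was lost for Trim34a with the mean of its features (adjusted p 0.133), Tlr4 with the mean of its features (adjusted p 0.115) and Il1r1 without exercised SAMP8 replicate 11, 14 or 15 or SAMR1 replicate 1, 3 or 5, with quantile normalization, over the 10 arrays alone or without the 2 arrays of lowest weight (adjusted p 0.0519 to 0.0902).

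**Figure D3:**
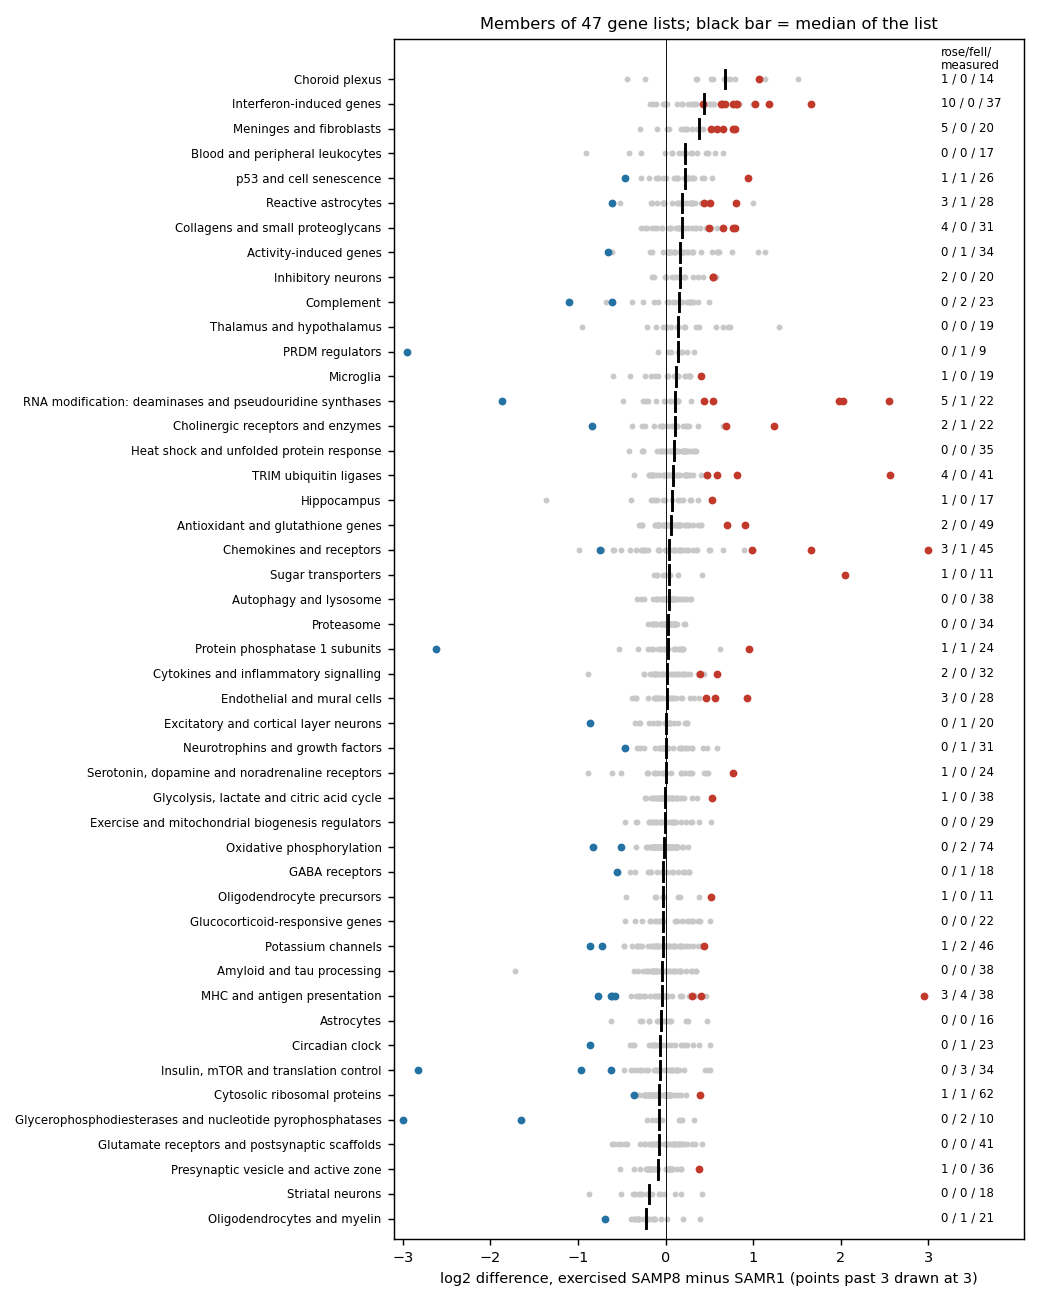
Each point is a measured member of 1 of 47 gene lists, placed at its log2 difference (exercised SAMP8 minus SAMR1). Red points rose and blue points fell at limma adjusted p under 0.05, grey points did not pass, and the black bar is the list's median; the interferon-induced list has 10 rises and 0 falls among 37 genes.

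Several markers of tissues that border the cortex were higher in exercised SAMP8. Of 20 measured genes of meninges and fibroblasts, 5 rose, 0 fell and 18 had differences above 0, with a median of 0.38. Col1a1, a chain of type I collagen, had log2 intensities of 9.84, 9.50, 9.76, 9.31 and 9.13 in exercised SAMP8, against 8.55, 8.87, 8.79, 8.54 and 8.82 in SAMR1. The groups did not overlap (0.79 ± 0.17, limma adjusted p = 0.0118). Its 10 other features, not checked for being repeats of 1 probe, had a median of 0.73. Lum and Dcn, small proteoglycans that bind collagen, rose by 0.65 ± 0.14 and 0.77 ± 0.18. Fbln1, an extracellular matrix protein, rose by 0.52 ± 0.12 and Slc13a4, a sulfate transporter of the meninges, by 0.59 ± 0.15. Dcn and Slc13a4 were chosen after their values were seen. The scores of the list were -0.05 to 0.31 in exercised SAMP8, 0.01 to 0.31 in sedentary SAMP8 and -0.50 to 0.01 in SAMR1. The summed intensity of the list was 33258 to 47407 in exercised SAMP8 and 29648 to 51845 in SAMR1, so it overlapped. How much border tissue went into each sample was not tested.

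Only 3 meningeal genes passed without exercised SAMP8 replicate 12 or 13 or SAMR1 replicate 1, 3 or 4. The threshold was missed by Fbln1 without SAMR1 replicate 4 or with the mean of its features (adjusted p 0.0512 to 0.0606), Dcn without exercised SAMP8 replicate 12 or 13 or SAMR1 replicate 1, 2 or 3 (adjusted p 0.0529 to 0.0695) and Slc13a4 on leaving out any 1 of 7 arrays or without the 2 arrays of lowest weight (adjusted p 0.0687 to 0.0889). In the collagen and proteoglycan list 4 of 31 genes rose and 0 fell, with a median of 0.18. It shares Col1a1, Lum and Dcn with the meningeal list and adds Prelp, another matrix proteoglycan (0.49 ± 0.10). The call did not hold for Prelp with the mean of its features or without the 2 arrays of lowest weight (adjusted p 0.0679 to 0.213).

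The choroid plexus list had the highest median of the 47, 0.68, with 12 of 14 differences above 0. Its scores were -0.64 to 0.77 in exercised SAMP8, -0.41 to 0.93 in sedentary SAMP8 and -0.82 to 0.38 in SAMR1, so the groups overlapped. Aqp1, the water channel of the plexus, was its only gene that passed (1.07 ± 0.25), and it was dim on 3 SAMR1 arrays. Adjusted p was no longer under 0.05 for Aqp1 without exercised SAMP8 replicate 11, 12 or 13 or SAMR1 replicate 5 or without the 2 arrays of lowest weight (adjusted p 0.052 to 0.0662). The summed intensity of the 14 genes was 1772 to 5262 in exercised SAMP8 and 1379 to 3820 in SAMR1, and its part in other results was not tested.

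Vessel genes gave 3 rises among 28, with a median of 0.02. Abcb1a, the drug efflux pump of the blood-brain barrier, rose by 0.93 ± 0.17 and was dim on all 5 SAMR1 arrays. Kcnj8, a potassium channel of pericytes, rose by 0.56 ± 0.11 and Pdgfrb, the pericyte growth factor receptor, by 0.46 ± 0.10. A call was lost for Kcnj8 with the mean of its features (adjusted p 0.168) and Pdgfrb without exercised SAMP8 replicate 11 or SAMR1 replicate 1 or 4 or over the 10 arrays alone (adjusted p 0.0508 to 0.0626).

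Glial lists gave 0 to 4 calls each. Astrocyte markers gave 0 of 16 in limma (2 at an unadjusted p under 0.05), with a median of -0.05, and the smallest p belonged to Slc4a4, a bicarbonate transporter (-0.62 ± 0.17, limma adjusted p = 0.062). Slc4a4 passed under 7 of 24 alternatives, among them leaving out exercised SAMP8 replicate 13 or SAMR1 replicate 2 (lowest adjusted p 0.0114). Reactive astrocyte genes gave 3 rises and 1 fall among 28, with a median of 0.19. Serpina3n, a protease inhibitor induced in injured brain, had log2 intensities of 8.19, 8.68, 8.62, 8.65 and 8.65 in exercised SAMP8, against 7.86, 7.54, 7.88, 7.90 and 7.58 in SAMR1. Exercised SAMP8 replicate 11 was the lowest of its group and still above every SAMR1 array (0.81 ± 0.11, limma adjusted p = 0.000387). Sphk1, sphingosine kinase, also rose (0.50 ± 0.12), as did Fbln5, an elastic fibre protein (0.44 ± 0.11, chosen after its values were seen), and the fall was that of H2-D1 described above. In microglia 1 of 19 genes rose, Aif1, the actin-binding protein Iba1 (0.41 ± 0.09). Myelin genes had the lowest median of the 47 lists, -0.23, with 18 of 21 differences at or below 0. Aspa, which splits N-acetylaspartate in oligodendrocytes, was the only one that passed (-0.69 ± 0.18). C1ql1, a marker of oligodendrocyte precursors, rose by 0.52 ± 0.13. Reactive astrocyte calls numbered 2 without exercised SAMP8 replicate 13 or 15 or SAMR1 replicate 4. The threshold was missed by Sphk1 without exercised SAMP8 replicate 13 or 15 or SAMR1 replicate 3 or 4 or over the 10 arrays alone (adjusted p 0.0533 to 0.0698), Fbln5 on leaving out any 1 of 13 arrays, with quantile normalization, with median centring or over the 10 arrays alone (adjusted p 0.0514 to 0.106), Aif1 without SAMR1 replicate 5 (adjusted p 0.0536), Aspa on leaving out any 1 of 9 arrays or over the 10 arrays alone (adjusted p 0.05001 to 0.103) and C1ql1 without exercised SAMP8 replicate 12, 13 or 15 or SAMR1 replicate 1, 4 or 5, with quantile normalization, over the 10 arrays alone or without the 2 arrays of lowest weight (adjusted p 0.0568 to 0.0879).

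Among excitatory and layer neurons, 1 of 20 measured genes passed. Rorb, the transcription factor of layer 4 neurons, had log2 intensities of 7.06, 6.92, 6.98, 6.69 and 6.26 in exercised SAMP8, against 7.62, 7.47, 7.61, 7.89 and 7.62 in SAMR1. The groups did not overlap (-0.86 ± 0.14, limma adjusted p = 0.00237), the median of its other features was -0.31, and sedentary SAMP8 differed from SAMR1 by -0.33. The exercised minus sedentary SAMP8 difference of Rorb did not pass. Rorb was also the only call among 23 circadian genes. Inhibitory neuron genes gave 2 rises and 0 falls among 20, and 17 differences were above 0, with a median of 0.16. The rises were in Dlx5, a homeobox factor of interneurons (0.55 ± 0.13), and Adarb2, the RNA-binding protein named above, which marks a class of interneurons (0.54 ± 0.13). The scores of the inhibitory list were -0.03 to 0.17 in exercised SAMP8, -0.04 to 0.21 in sedentary SAMP8 and -0.21 to -0.08 in SAMR1. Its summed intensity was 104740 to 127080 in exercised SAMP8 and 105570 to 118980 in SAMR1, so by that measure the groups overlapped. Adjusted p was no longer under 0.05 for Dlx5 without exercised SAMP8 replicate 11, 14 or 15 or SAMR1 replicate 3, 4 or 5, with quantile normalization or over the 10 arrays alone (adjusted p 0.0501 to 0.0786) and Adarb2 on leaving out any 1 of 7 arrays or with the mean of its features (adjusted p 0.0511 to 0.213).

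Markers of neighbouring brain regions and of blood were followed as a check of the tissue. In the striatal list 0 of 18 genes passed in limma (3 at an unadjusted p under 0.05), the median was -0.19, and Pde10a, a phosphodiesterase of striatal neurons, had the smallest p (-0.87 ± 0.25, limma adjusted p = 0.0687). Pde10a passed under 5 of 24 alternatives, among them leaving out exercised SAMP8 replicate 12 (adjusted p 0.0221) or SAMR1 replicate 2 (0.0295). The striatal scores were -0.52 to 0.15 in exercised SAMP8, 0.09 to 0.39 in sedentary SAMP8 and -0.19 to 0.42 in SAMR1. In the thalamic and hypothalamic list 0 of 19 passed (5 unadjusted), and Trh, a releasing hormone, had the smallest p (1.30 ± 0.41, limma adjusted p = 0.0969, and 0.0136 without exercised SAMP8 replicate 14). In the hippocampal list 1 of 17 passed, Tspan18 (0.53 ± 0.13), whose other feature gave -0.08. In the blood list 0 of 17 passed (4 unadjusted), and Lyz2, lysozyme, had the smallest p (0.46 ± 0.16). Their part in the other results was not tested. A call was lost for Tspan18 without exercised SAMP8 replicate 11 or 13 or SAMR1 replicate 1, 4 or 5, with quantile normalization, with the mean of its features or without the 2 arrays of lowest weight (adjusted p 0.0556 to 0.278).

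**Figure D4:**
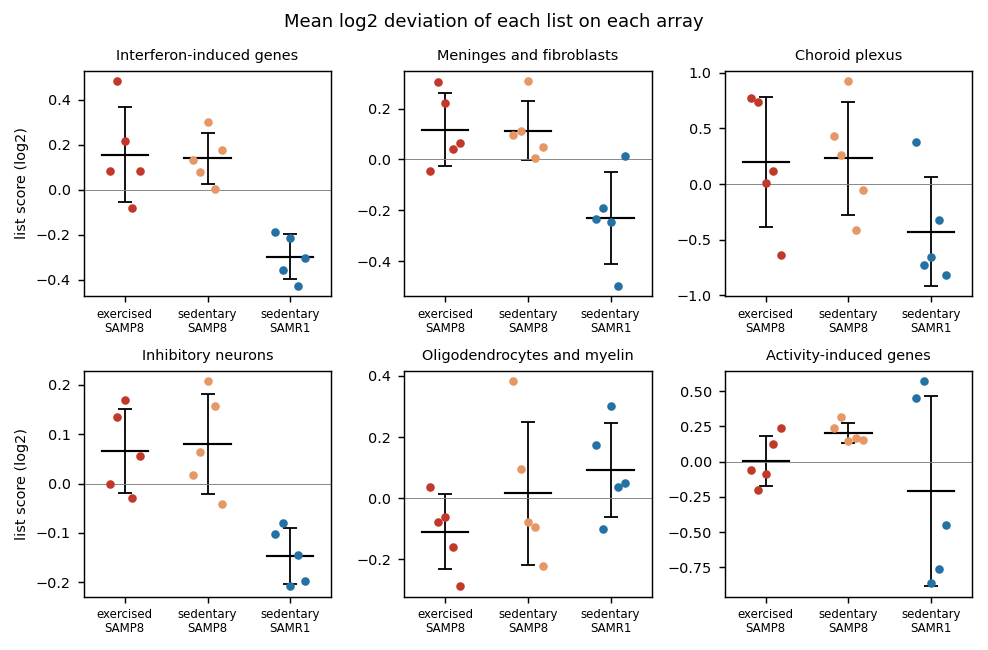
Score of 6 gene lists on each array (mean log2 deviation of the members from their average over 15 arrays), in exercised SAMP8, sedentary SAMP8 and sedentary SAMR1, with mean ± SD. The scores of interferon-induced and inhibitory neuron genes separate both exercised and sedentary SAMP8 from SAMR1. Those of meninges and fibroblasts, choroid plexus, myelin and activity-induced genes overlap between exercised SAMP8 and SAMR1.

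Receptors and channels showed a few single-gene differences. Chrna4, a main subunit of the brain nicotinic receptor, had log2 intensities of 8.62, 8.63, 8.63, 8.64 and 8.59 in exercised SAMP8, against 7.29, 7.38, 7.42, 7.58 and 7.25 in SAMR1. These groups were well apart (1.24 ± 0.09, limma adjusted p = 3.13e-07), yet its other feature gave -1.06, and the mean of both gave 0.09. Chrm2, a muscarinic receptor, fell by 0.84 on the log2 scale (SE 0.16) to dim values on all 5 exercised SAMP8 arrays. Chrna2 rose by 0.69 ± 0.15 but was dim on all 10 arrays. These were 3 of 22 cholinergic genes. Among 46 potassium channel genes 1 rose and 2 fell. In sedentary SAMP8 the cholinergic list had 2 rises and 1 fall against SAMR1, and the potassium channel list 1 rise and 2 falls. Kcnn2, the small-conductance channel SK2, differed by -0.86 ± 0.11 (limma adjusted p = 0.000287). Its 10 other features, not checked for being repeats of 1 probe, had a median of -0.86. Kcnk1, a leak channel, rose by 0.44 ± 0.09. Kcnv1, a silent subunit, differed by -0.73 ± 0.17, with 0.50 at its other feature. The threshold was missed by Chrna4 with the mean of its features (adjusted p 0.778), Chrna2 with a trended, robust prior (adjusted p 0.059), Kcnk1 without the 2 arrays of lowest weight (adjusted p 0.0511) and Kcnv1 without exercised SAMP8 replicate 15 or SAMR1 replicate 4 or 5, over the 10 arrays alone or with the mean of its features (adjusted p 0.0557 to 0.681).

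Apart from the cholinergic list above (13.6% called), the transmitter receptor and synaptic lists had 0 or 1 call each. Their shares were near or below the 4.26% of all genes that passed. Of 41 glutamate receptors and postsynaptic scaffolds, 0 passed in limma (9 at an unadjusted p under 0.05), with a median of -0.08, and Dlgap2, a scaffold protein, had the smallest p (-0.44 ± 0.14, limma adjusted p = 0.0995, and 0.0477 without exercised SAMP8 replicate 12). Of 18 GABA receptor genes 1 fell, Gabra4 (-0.55 ± 0.12), which differed by -0.10 in sedentary SAMP8. Of 36 presynaptic genes 1 rose, Amph, amphiphysin of the vesicle cycle (0.38 ± 0.10, and 0.06 in sedentary SAMP8). The exercised minus sedentary SAMP8 differences of Gabra4 and Amph did not pass. Of 24 serotonin, dopamine and noradrenaline receptors 1 rose, Htr5b (0.78 ± 0.20), dim on 4 SAMR1 arrays. Among 31 neurotrophins and growth factors 1 fell, Igfbp5, which binds insulin-like growth factors (-0.47 ± 0.11). Adjusted p was no longer under 0.05 for Gabra4 without SAMR1 replicate 5 (adjusted p 0.0512), Amph on leaving out any 1 of 10 arrays, over the 10 arrays alone, with array weights or without the 2 arrays of lowest weight (adjusted p 0.0516 to 0.13), Htr5b on leaving out any 1 of 10 arrays, with quantile normalization, over the 10 arrays alone or without the 2 arrays of lowest weight (adjusted p 0.0502 to 0.106) and Igfbp5 without exercised SAMP8 replicate 11, 12 or 15 or SAMR1 replicate 3, 4 or 5, over the 10 arrays alone or with the mean of its features (adjusted p 0.0514 to 0.133).

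Of 74 oxidative phosphorylation genes, 0 rose and 2 fell, with a median of -0.02, where 4.26% of all genes passed. Ndufa11, an accessory subunit of complex I, had log2 intensities of 9.40, 9.91, 9.83, 9.43 and 9.93 in exercised SAMP8, against 10.50, 10.62, 10.58, 10.47 and 10.45 in SAMR1. The groups did not overlap (-0.82 ± 0.11, limma adjusted p = 0.000194), and its other feature gave -0.60. Ndufa12, an assembly-related subunit of the same complex, differed by -0.51 ± 0.09, but its other features had a median of 0.20. Among 38 genes of glycolysis, lactate and the citric acid cycle, 1 rose, Slc16a7, the lactate transporter of neurons (0.53 ± 0.09, with -0.12 at its other feature). Of 62 ribosomal protein genes, Rpl21 rose (0.40 ± 0.09) and Rpl13a fell (-0.36 ± 0.09), both from a family with many pseudogenes. A call was lost for Ndufa12 with the mean of its features (adjusted p 0.84), Slc16a7 with the mean of its features (adjusted p 0.407), Rpl21 on leaving out any 1 of 7 arrays, with quantile normalization, over the 10 arrays alone or without the 2 arrays of lowest weight (adjusted p 0.0505 to 0.073) and Rpl13a on leaving out any 1 of 11 arrays, over the 10 arrays alone, with array weights or without the 2 arrays of lowest weight (adjusted p 0.0508 to 0.0957).

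Genes tied to ageing and stress defence were next. Cdkn2d, an inhibitor of the cell cycle kinases Cdk4 and Cdk6, had log2 intensities of 12.13, 12.14, 12.11, 12.02 and 12.01 in exercised SAMP8, against 10.95, 11.22, 11.15, 11.34 and 11.01 in SAMR1. Every exercised SAMP8 array was above every SAMR1 array (0.94 ± 0.10, limma adjusted p = 2.81e-05). Among 26 p53 and senescence genes it was the only rise, with Igfbp5 the only fall and a median of 0.22. Gstm2, a glutathione transferase, had log2 intensities of 8.57, 8.88, 8.55, 8.52 and 8.57 in exercised SAMP8, against 7.68, 7.85, 7.70, 7.44 and 7.89 in SAMR1. Exercised SAMP8 replicate 12 was the highest array (0.91 ± 0.10, limma adjusted p = 4.78e-05). Gstm2 has close paralogs, which a feature may not tell apart. With Mt3, a brain metallothionein (0.71 ± 0.19), it made 2 rises and 0 falls among 49 antioxidant genes. The threshold was missed by Mt3 on leaving out any 1 of 12 arrays, with quantile normalization, over the 10 arrays alone, with the mean of its features or without the 2 arrays of lowest weight (adjusted p 0.0502 to 0.128). Without SAMR1 replicate 2, 4 genes of the senescence list passed.

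Several lists often followed in exercise and brain ageing gave no call against SAMR1. In limma 0 of 29 exercise and mitochondrial biogenesis regulators passed (5 at an unadjusted p under 0.05, median -0.01), and Sirt1, a deacetylase, had the smallest p (-0.34 ± 0.12, limma adjusted p = 0.131). Likewise 0 of 38 amyloid and tau genes passed (5 unadjusted), with Psen2, a presenilin of gamma-secretase, at 0.34 ± 0.10 (limma adjusted p = 0.0729). None of 35 heat shock and unfolded protein genes passed (3 unadjusted), with Eif2ak3, the kinase PERK, at -0.42 ± 0.12 and 0.78 at its other feature. The same held for 34 proteasome genes (2 unadjusted, Psmd11 at -0.20 ± 0.07), 38 autophagy and lysosome genes (5 unadjusted, Atg5 at 0.29 ± 0.09) and 22 glucocorticoid-responsive genes (4 unadjusted, Klf9 at -0.35 ± 0.10). Under some alternatives Eif2ak3 (5 of 24, among them without SAMR1 replicate 1), Psen2 (4 of 24, among them without sedentary SAMP8 replicate 7 or 8) and Klf9 (3 of 24, among them without SAMR1 replicate 2) did pass. A missed threshold does not show equal levels, since the standard errors here were 0.07 to 0.12 on the log2 scale.

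The activity-induced list, the immediate early genes that neurons transcribe when they fire, had a wider range in SAMR1 than in either SAMP8 group. Its scores were -0.20 to 0.24 in exercised SAMP8, 0.15 to 0.32 in sedentary SAMP8 and -0.86 to 0.57 in SAMR1. The SAMR1 range held both other groups. Of 34 genes, 29 had differences above 0 and 1 passed, Klf2. The median was 0.17, against 0.38 in sedentary SAMP8.

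Klf2 was also among the 5 genes that passed against SAMR1 and had the smallest p between exercised and sedentary SAMP8. Its log2 intensities were 14.80, 16.00, 15.30, 15.21 and 15.34 in exercised SAMP8, 16.00, 16.00, 15.84, 16.00 and 15.87 in sedentary SAMP8 and 15.99, 16.00, 16.00, 16.00 and 15.98 in SAMR1. On 1 exercised SAMP8, 3 sedentary SAMP8 and 4 SAMR1 arrays it was within 1% of the highest intensity in the table, 65480, the top of its scale. Brightness past the top is not seen, so the measured difference from SAMR1, -0.66, does not give the size of the gap at this feature, and its other feature gave 0.20. Klf2 is a zinc finger factor of vessel walls and resting lymphocytes. The values of the exercised SAMP8 and SAMR1 arrays overlapped.

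The remaining genes of that set differed in mean from both sedentary groups, which follows from how they were picked. Dcaf12l1, a substrate adaptor of a ubiquitin ligase, had log2 intensities of 12.22, 12.15, 12.09, 12.20 and 12.28 in exercised SAMP8, 11.79, 11.88, 11.90, 11.91 and 11.89 in sedentary SAMP8 and 11.90, 11.84, 11.80, 11.95 and 11.64 in SAMR1. Mycl, a Myc family factor, had 8.47, 8.72, 8.61, 8.65 and 8.36 in exercised SAMP8, 8.10, 8.19, 8.11, 8.21 and 7.94 in sedentary SAMP8 and 7.93, 8.17, 7.91, 8.06 and 7.61 in SAMR1. The exercised arrays were above both sedentary groups for these genes. Against SAMR1 the differences were 0.36 ± 0.07 and 0.62 ± 0.10, and against sedentary SAMP8 0.31 and 0.45. Chl1, a neural adhesion molecule, differed from SAMR1 by 0.36 ± 0.09 and from sedentary SAMP8 by 0.37. Rock1, a kinase of the actin skeleton, differed by -0.52 ± 0.11 from SAMR1 and by -0.45 from sedentary SAMP8. Against sedentary SAMP8 their unadjusted p ran from 0.000418 to 0.00128, and no adjusted p was below 0.521. They had to pass against SAMR1 and were then picked as the smallest p of that contrast, so their sizes in both contrasts are a description. A call against SAMR1 was lost for Klf2 over the 10 arrays alone, with the mean of its features or without the 2 arrays of lowest weight (adjusted p 0.0691 to 0.532), Chl1 on leaving out any 1 of 11 arrays, with quantile normalization, with median centring or without the 2 arrays of lowest weight (adjusted p 0.0557 to 0.121) and Rock1 over the 10 arrays alone or with the mean of its features (adjusted p 0.0559 to 0.211).

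Another 5 genes passed in sedentary SAMP8 against SAMR1 but not in exercised SAMP8, again picked by the smallest p between exercised and sedentary SAMP8. Taf15, an RNA-binding protein of the FET family, averaged 7.02 ± 0.23 in exercised SAMP8, 7.69 ± 0.36 in sedentary SAMP8 and 7.03 ± 0.24 in SAMR1 (log2 intensity, mean ± SD, n = 5 each). Mageh1, a MAGE family gene, averaged 8.82 ± 0.28 in exercised SAMP8, 9.46 ± 0.27 in sedentary SAMP8 and 8.77 ± 0.32 in SAMR1. An exercised mean nearer to SAMR1 follows from how these genes were picked, so the values are a description. Csta1, a cystatin, Fabp9, a fatty acid binding protein, and Fam122c were lower in sedentary SAMP8, with exercised differences from SAMR1 of 0.11, -0.05 and -0.16. These 3 were dim on most arrays. The exercised minus sedentary SAMP8 differences, -0.67 for Taf15, -0.64 for Mageh1, 0.98 for Csta1, 0.69 for Fabp9 and 0.45 for Fam122c, did not pass.

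**Figure D5:**
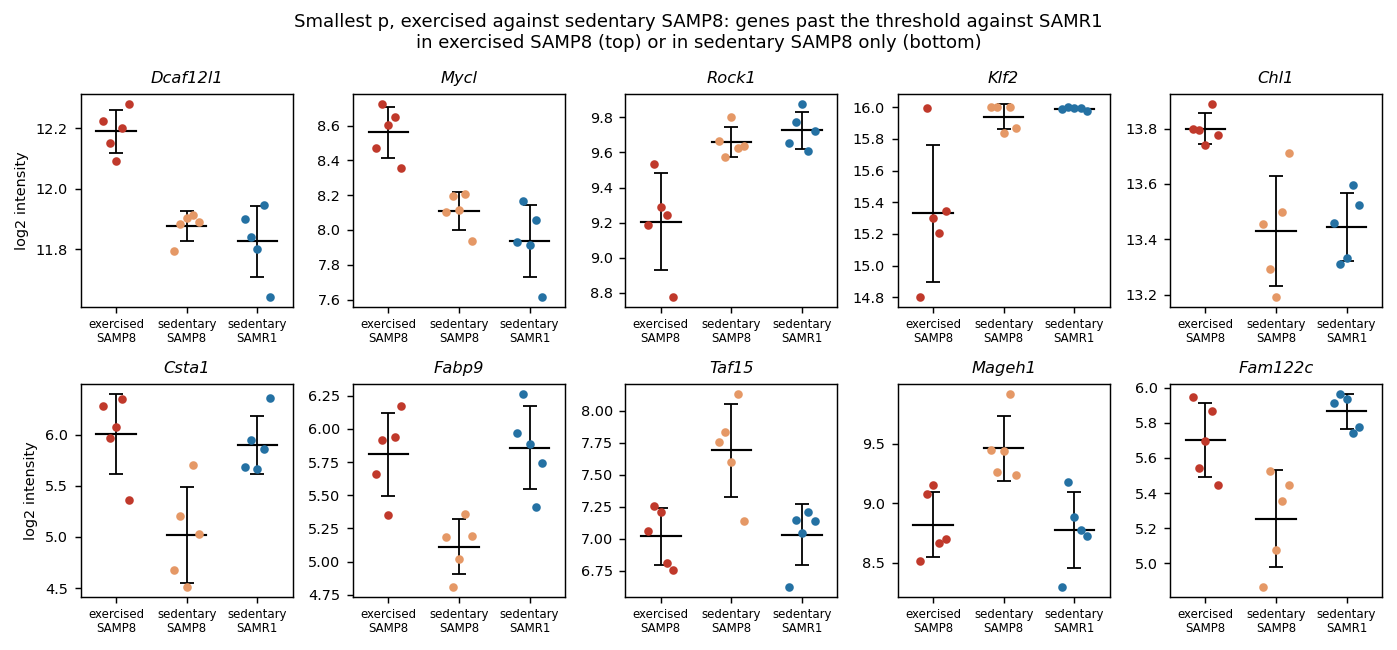
Log2 intensity on each array of 10 genes chosen for a small p between exercised and sedentary SAMP8, with mean ± SD (5 arrays a group). The top row passed against SAMR1 in exercised SAMP8 and the bottom row in sedentary SAMP8 only; none passed between exercised and sedentary SAMP8.

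Some genes that passed lay next to each other on the chromosome. By gene order in GRCm38.p6, 145 of 697 placed genes that passed (20.8%) had an adjacent measured gene that also passed, as did 1180 of 15675 genes that did not pass (7.53%). The longest run, 6 genes, held Ccl19. Its members, named after their values were seen, were Rpp25l, of the RNase P complex (1.27 ± 0.13), Dctn3, a dynactin subunit (1.67 ± 0.11), Galt, an enzyme of galactose use (-0.59 ± 0.07), Ccl27a, the predicted gene Gm3893 (3.42 ± 0.09) and Ccl19. Galt fell while the other 5 rose.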

How the data were processed

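Total RNA of whole cortex was hybridised to 1-colour Agilent arrays, per the labels' protocols. The authors deposited linear Cy3 intensity for each array. The submitters' processing notes name limma without a version or a step. The sources used here do not give the background correction, the normalization method, slides or scan dates, so batches could not be tested. At 96.25% of ranks the sorted deposited intensities of the 15 columns agreed within 0.05 on the log2 scale, so they were taken as already normalized. Of 45220 features, 34479 had values and 27968 of these had 1 gene symbol. Each of 16401 genes was represented by its feature of highest mean over the arrays, as log2 with no pseudocount. The other features of a gene, where they exist (6970 genes), are given as their median. Probe sequences were not used, so whether features of a gene repeat 1 probe was not checked.

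Each gene was fitted with limma 3.58.1 in R 4.3.3 (lmFit, eBayes) with 3 group means over 15 arrays and a common estimate of spread per gene. A gene passed at a two-sided p under 0.05 after adjustment by Benjamini and Hochberg's method over 16401 genes. Errors beside log2 differences are limma's standard errors. Gene lists (47, with 1345 of 1496 entries measured) are described by counts and medians, with no set test. The contrast, its members and the lists were chosen with earlier results of these data known, while titles alone put each array in its group. Genes were named by rule: the 12 largest rises and falls with no clone name, up to 3 passing members per list by smallest p (or 1 where none passed), and 5 genes of each kind nearest to an exercise difference. Genes chosen otherwise are marked. Alternatives were quantile normalization, median centring, the 10 arrays alone, the mean of features, leaving out the dimmest 30% of genes, adding 50, a trended and robust prior, array weights and leaving out arrays. Promoters are RefSeq's for GRCm38.p6, and that build was otherwise used for names and gene order only. Python 3.11.15, pandas 2.3.3, numpy 2.4.6 and matplotlib 3.10.9 were used.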

Additional observations from a re-analysis of the deposited data

Results flagged for a closer look

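In 11 of 248 groups of 5 arrays tested over the named genes, 1 array stood far from the other 4 of its group. Chance flags about 1 in 20 groups. In exercised SAMP8 the highest array was replicate 11 for Deptor (log2 intensity 8.43) and replicate 12 for Gstm2 (8.88). The lowest exercised SAMP8 array was replicate 15 for Peg3 (7.82), replicate 11 for Serpina3n (8.19) and replicate 14 for Rpl21 (6.85). In SAMR1 the lowest array was replicate 5 for Rpusd4 (7.22), replicate 5 for Rerg (7.86) and replicate 1 for Taf15 (6.63). The highest SAMR1 array was replicate 4 for Pramel39 (10.63), replicate 3 for Tspan18 (7.83) and replicate 3 for H2-DMb2 (6.88). Of these genes, Tspan18 and Rpl21 lost their call without some single arrays, and Taf15 had none in exercised SAMP8 against SAMR1.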

How the results depend on the processing

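Over 24 alternatives, the count of genes that passed ran from 483 to 849, against 698. It was 610 with quantile normalization, 673 with median centring, 502 over the 10 arrays alone, 618 with the mean of features, 781 without the dimmest genes, 806 after adding 50, 849 with a trended and robust prior and 749 with array weights. Leaving out 1 array at a time gave 306 to 554 rises and 177 to 294 falls, with the fewest rises without SAMR1 replicate 5. Adding 50 to the intensities moved the log2 differences of 17 named genes by over 1.5 times, all toward 0 and with the calls kept. Beside H2-Bl and Trim12a, given above, they became -0.55 for Gzmf, -0.48 for Chrm2, -0.38 for H2-DMb2, 0.27 for Dhx58, 0.31 for Trim36 and Chrna2, 0.37 for Tlr4, 0.42 for Usp18 and Ifit1, 0.43 for Ifi204, 0.46 for Htr5b and Trim34a, 0.51 for Oas1a, 0.55 for Abcb1a and 0.67 for Aqp1. No direction turned for any gene named here that passed. Of 108 such genes, 63 passed under every alternative in which they were tested and 45 were lost under at least 1; 30 were lost on leaving out 1 array. With the mean of features the call was lost for 21 of these genes, more often than under median centring (4) or array weights (4); over the 10 arrays alone it was lost for 23. Of 16 named genes that did not pass, 7 passed under at least 1 alternative. No paired analysis was possible because the replicate numbers 1 to 15 are not shared between groups. Detection calls and slides are not used here, which limits what can be said of dim genes.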

Other observations

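A second run of neighbouring genes, named after their values were seen, held Abcb1a and its paralog Abcb1b, drug efflux pumps, Abcb4, which moves phosphatidylcholine, Crot, a carnitine octanoyltransferase, and Tmem243. The log2 differences between exercised SAMP8 and SAMR1 were 0.93 ± 0.17, 0.51 ± 0.10 and 0.36 ± 0.10 for the transporters, and -0.44 ± 0.10 and -0.64 ± 0.13 for the genes beside them. The run thus held rises and falls. A call was lost for Abcb1b with the mean of its features (adjusted p 0.462), Abcb4 on leaving out any 1 of 13 arrays, with quantile normalization, with median centring, over the 10 arrays alone, with array weights or without the 2 arrays of lowest weight (adjusted p 0.0508 to 0.168) and Crot without exercised SAMP8 replicate 12 or 14 or SAMR1 replicate 3 or 5, over the 10 arrays alone or with the mean of its features (adjusted p 0.0583 to 0.0811). In another run Rerg, a Ras-like growth inhibitor, Ptpro, a receptor tyrosine phosphatase, and Eps8, an actin regulator, again named after their values were seen, rose by 0.81 ± 0.12, 1.02 ± 0.16 and 0.67 ± 0.09, and passed under all 24 alternatives. There were 12 runs of 3 or more genes, with 43 genes in all. Of the 698 genes that passed, 314 had other features, and the median of those had the opposite sign in 90.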
